A study of Homo sapiens with 18 samples.

Results

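KRT75 and a set of keratin and desmosomal genes were followed across U2OS cells that differ in DNMT3A and in exposure to cytarabine. The set holds 10 of the 25296 genes in the table of estimated counts, found by symbol: the type II keratins KRT75, KRT7, KRT8, KRT80 and KRT81, the type I keratins KRT18 and KRT19, and the desmosomal genes DSP, JUP and PKP2. KRT75 and DSP were put on the list because their levels differed widely between untreated lines, so their untreated levels are given as a description. The other 8 were listed by family. U2OS is an established human osteosarcoma line. Of the 3 derived lines, EV carried the empty vector MigR1, WT carried wild-type DNMT3A and MUT carried mutant DNMT3A. DNMT3A is a DNA methyltransferase. The mutation is R882C in the series text and R882H in the sample labels. Each line was sampled untreated (a vehicle control in the series text) and after 24 h with 10 µM cytarabine (Ara-C), a cytidine analogue and chemotherapy drug that stalls DNA synthesis once incorporated. There were 3 biological replicates in each of the 6 groups, 18 libraries in all. Each construct is represented by 1 derived line, so that an effect of the construct and a difference between the lines cannot be told apart.

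Keratins are intermediate filament proteins that assemble from pairs of 1 type I and 1 type II chain. Simple epithelia use the pair KRT8 and KRT18, with KRT7 and KRT19 in many ducts and glands, while KRT75 and KRT81 are best known from the hair follicle. Desmosomes fasten keratin filaments to the plasma membrane of neighbouring cells: desmosomal cadherins bind plakoglobin (JUP) and plakophilins such as PKP2, and these hold desmoplakin (DSP), which binds the filaments. Osteosarcoma is a mesenchymal tumour, and its chief intermediate filament protein is vimentin rather than keratin.

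Levels are CPM, counts per M (1000000 counts) of the scaled library size, and library totals ran from 15.4 to 21.9 M estimated counts. The labelled cell type was checked against marker lists. The 13 measured mesenchymal genes summed to between 3758 and 4243 CPM in the untreated libraries and to between 2722 and 3221 CPM in the treated ones, the 8 osteoblast markers to between 1104 and 1528 CPM and the 4 blood cell markers to between 0.228 and 1.60 CPM. Most of the osteoblast sum was SPARC, with group means from 888 to 1151 CPM. SPARC and COL1A1 are on the mesenchymal list as well. The osteoblast genes SP7 and IBSP were absent from the counts, and BGLAP was at or under 3 counts in every treated WT and MUT library. The 19 epithelial markers summed to 42.2 to 57.2 CPM in the untreated libraries and to 70.2 to 99.3 CPM in the treated ones. The 10 keratinocyte markers summed to more, 426 to 573 CPM in the untreated and 516 to 800 CPM in the treated libraries. Most of that was SFN, with group means from 283 to 404 CPM. Treated cells had less SFN than untreated ones for EV (283 against 313) and MUT (342 against 373), and more for WT (404 against 332). FLG, also on this list, was higher with cytarabine in each line. Its treated means were 199 (EV), 320 (WT) and 207 (MUT), against untreated means of 57.6, 69.1 and 40.2. The FLG log2 changes were 1.79, 2.21 and 2.37 (edgeR adjusted p 2.2e-05, 1.8e-06 and 7.4e-07). Untreated MUT was uneven for FLG, with 47.1, 59.8 and 13.7 CPM. DNMT3A itself had means of 26.9, 133 and 456 CPM in untreated EV, WT and MUT cells and of 47.4, 176 and 524 CPM after treatment. Untreated MUT replicate 3 stood apart, with 253.6 CPM of DNMT3A against 499.7 and 615 CPM in the other two, and untreated MUT was the least even group for KRT8, KRT18, KRT80 and KRT81 as well. Cells were plated as biological triplicates, per the labels' growth protocol. In RNA of whole cultures, a change in the number of cells that express a gene and a change in RNA per cell cannot be told apart.

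**Figure D1:**
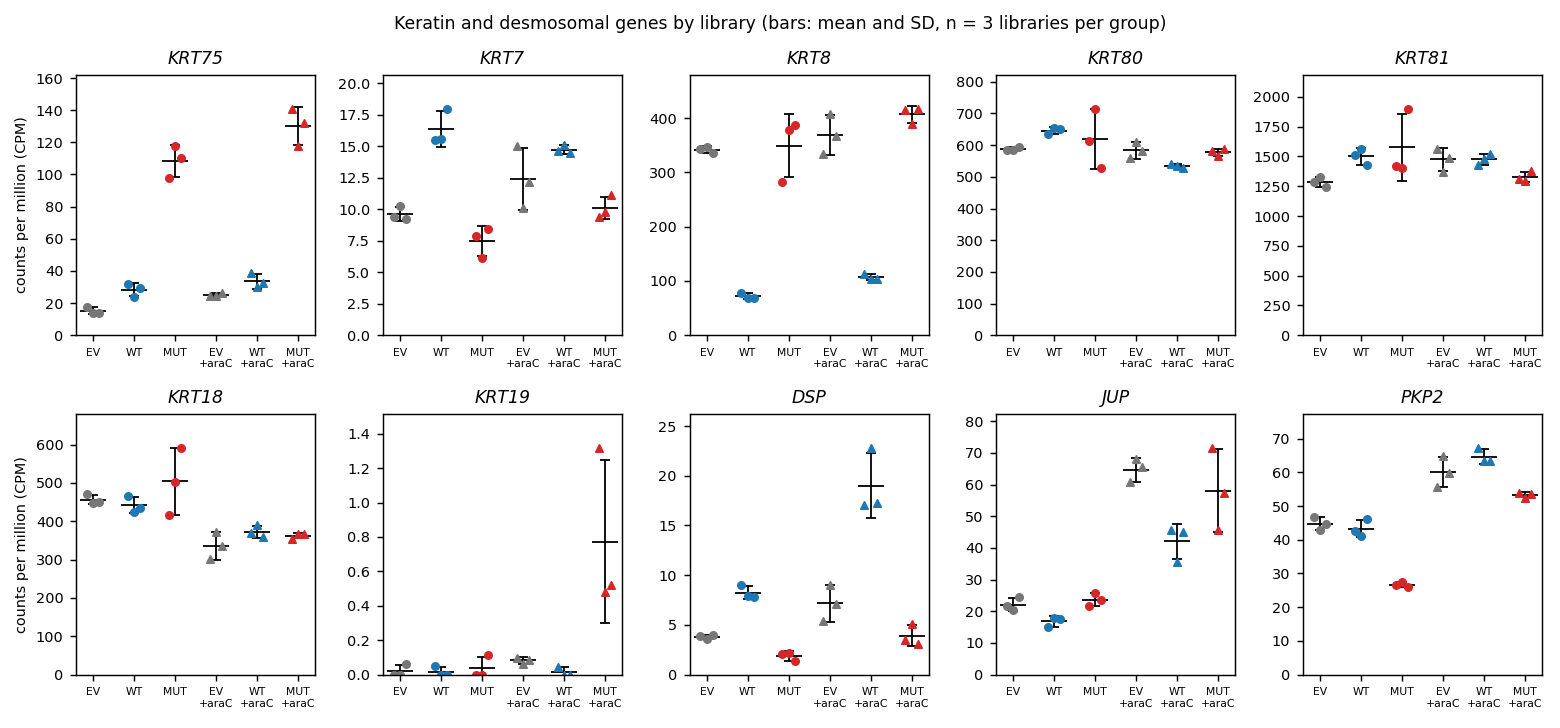
Levels of the 10 genes in CPM (y axis, a separate scale for each gene starting at 0) in the 6 groups, with circles for untreated and triangles for cytarabine-treated libraries (+araC); horizontal bars are the mean and whiskers the SD of 3 libraries. KRT75 was highest in MUT, KRT8 lowest in WT, DSP highest in WT, and JUP and PKP2 were higher after cytarabine in every line.

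KRT75 (chromosome 12, 52424070 to 52434526, minus strand, hg38) is a type II keratin of the companion layer of the hair follicle. The 250 bases before its start site (RefSeq, GRCh38.p14, chr12:52434372-52434621, minus strand) are shown because KRT75 had the largest difference between MUT and EV among the 9 tested genes, and DNMT3A methylates CG dinucleotides. Every CG is in capitals, and the start site follows the last base.
KRT75: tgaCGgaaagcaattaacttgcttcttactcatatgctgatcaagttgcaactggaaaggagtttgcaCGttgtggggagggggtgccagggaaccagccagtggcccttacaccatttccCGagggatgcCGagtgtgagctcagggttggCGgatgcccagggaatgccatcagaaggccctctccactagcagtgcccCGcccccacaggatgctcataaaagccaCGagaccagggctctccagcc

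This window held 7 CG, more than 41.1% of 35116 RefSeq promoter windows of the same length, in which the median was 11 and the quartiles 3 and 23. The window before the start of DSP held 33 CG, more than 91.9% of windows, that before the first start of JUP held 17, and that before an inner start of KRT8 held 1, more than 6.06% of windows. These 4 genes had a matching window. The KRT8 start in question, 52926469, lies well inside the KRT8 gene row (52897187 to 52949955, minus strand). Windows before other KRT8 starts were not read, so this count does not describe them. Letters of the DSP and JUP windows are not shown because all 250 and 188 of their bases lie in exons of other annotated transcripts, and the KRT8 window is given by its counts alone. The motif GGGCGG, searched on both strands, was found 1 time for KRT75, 7 times for DSP, 2 times for JUP and 0 times for KRT8, and in 42.6% of all windows. Neither TATAAA (10.7% of all windows) nor TGANTCA (6.57% of all windows), both searched on both strands, occurred in these windows. DNA methylation was not measured in the data used here.

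Untreated EV libraries gave 17.6, 13.9 and 14.1 CPM of KRT75, untreated WT libraries 31.8, 23.9 and 29.3 CPM, and untreated MUT libraries 97.7, 117.5 and 110.1 CPM. The 3 lines did not overlap, with EV lowest and MUT highest. These are the levels on which the gene was chosen, and the log2 differences were 0.90 (WT minus EV), 2.83 (MUT minus EV) and 1.94 (MUT minus WT). After cytarabine the values were 24.6, 24.3 and 26.2 CPM in EV, 38.6, 29.8 and 32.3 CPM in WT, and 141, 118 and 132 CPM in MUT. The order of the lines was the same, again with no overlap.

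The treated libraries were not used to choose the gene, and the lines were tested there with the edgeR quasi-likelihood test, fitted over all 18226 genes that passed a filter on low counts, with Benjamini-Hochberg adjustment. KRT75 was higher in MUT than in EV by 2.38 on the log2 scale (SE 0.117, edgeR adjusted p 2.0e-10) and higher than in WT by 1.95 (SE 0.114, edgeR adjusted p 7.4e-10). It was higher in WT than in EV by 0.42 (SE 0.118, edgeR adjusted p 0.0180). That last difference lost its call without treated EV replicate 1 (0.41, edgeR adjusted p 0.0541), without treated EV replicate 2 (0.41, edgeR adjusted p 0.0525) and without treated WT replicate 1 (0.31, edgeR adjusted p 0.117). The 3 contrasts between treated lines share libraries. They compare the same lines whose untreated difference chose KRT75. They show that the difference was present after treatment and are not independent support for it. Cytarabine minus untreated was 0.72 in EV, 0.25 in WT and 0.26 in MUT on the log2 scale, values that carry no test because the untreated libraries chose the gene. The antisense row AC055736.1 overlaps KRT75 and held 0.764% as many counts.

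KRT8 (chromosome 12, 52897187 to 52949955, minus strand), the type II partner of KRT18 in simple epithelia, was low in the WT line. Untreated libraries gave 342.5, 347.7 and 336.0 CPM in EV, 77.9, 69.3 and 68.1 CPM in WT, and 281.9, 378.5 and 386.9 CPM in MUT. Every WT library lay below every library of the other lines, and EV and MUT overlapped. The log2 fold change of WT against EV was -2.25 (SE 0.104, edgeR adjusted p 4.0e-11) and that of MUT against WT was 2.28 (SE 0.104, edgeR adjusted p 2.4e-11). MUT against EV was 0.03 with a 95% interval of -0.18 to 0.23, which did not pass the threshold.

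The same order held for KRT8 after treatment, with 334, 408 and 367 CPM in EV, 113, 104 and 104 CPM in WT, and 415, 388 and 418 CPM in MUT. The log2 fold change of WT against EV was -1.79 (SE 0.101, edgeR adjusted p 6.7e-10), and MUT was higher than WT by 1.93 (SE 0.102, edgeR adjusted p 2.4e-10). MUT against EV was 0.14, with an interval of -0.06 to 0.34. Cytarabine raised KRT8 in WT by 0.58 (SE 0.101, edgeR adjusted p 9.6e-05). The changes of 0.11 in EV and 0.22 in MUT did not pass the threshold (in MUT it was 0.27 and called without untreated MUT replicate 3), nor did the difference of 0.46 between the effects in WT and EV (edgeR adjusted p 0.245).

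KRT18 (chromosome 12, 52948871 to 52952902, plus strand), the type I chain that pairs with KRT8, did not follow it between lines. Untreated values were 471.4, 448.9 and 449.6 CPM in EV, 465.7, 425.2 and 435.7 CPM in WT, and 417.3, 503.1 and 591.7 CPM in MUT, and the 3 lines overlapped. The difference of WT against EV was -0.05 with a 95% interval of -0.25 to 0.15, and none of the 6 line differences of KRT18 passed the threshold. Without untreated MUT replicate 1, the lowest of its group, MUT against EV went from 0.14 to 0.26 (edgeR adjusted p 0.0344) and MUT against WT from 0.19 to 0.31 (edgeR adjusted p 0.0132), and both were called. Cytarabine lowered KRT18, to 300.4, 371.5 and 334.9 CPM in EV, 370.5, 390.0 and 359.1 CPM in WT, and 354.3, 365.8 and 365.7 CPM in MUT. The log2 changes were -0.44 (SE 0.0959, edgeR adjusted p 7.4e-04), -0.24 (SE 0.0957, edgeR adjusted p 0.0406) and -0.48 (SE 0.0958, edgeR adjusted p 3.0e-04). Treated and untreated libraries did not overlap in any line, and the call in WT was lost in 15 of 25 alternative settings, among them the omission of any WT library, with values from -0.28 to -0.21.

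The balance within the pair was read per kb of exon (GENCODE 44), since the genes differ in length. The ratio of KRT8 to KRT18 was 0.334 ± 0.0107 (SD, n = 3) in untreated EV, 0.0723 ± 0.00243 in untreated WT and 0.310 ± 0.0231 in untreated MUT. After cytarabine it was 0.492 ± 0.00416, 0.128 ± 0.00858 and 0.502 ± 0.0253. The ratio was higher after treatment than before in each line with no overlap, and WT lay below EV and MUT in both conditions. The absolute ratio depends on the exon length used for KRT8, which includes alternative transcripts, while the relation between groups does not.

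**Figure D2:**
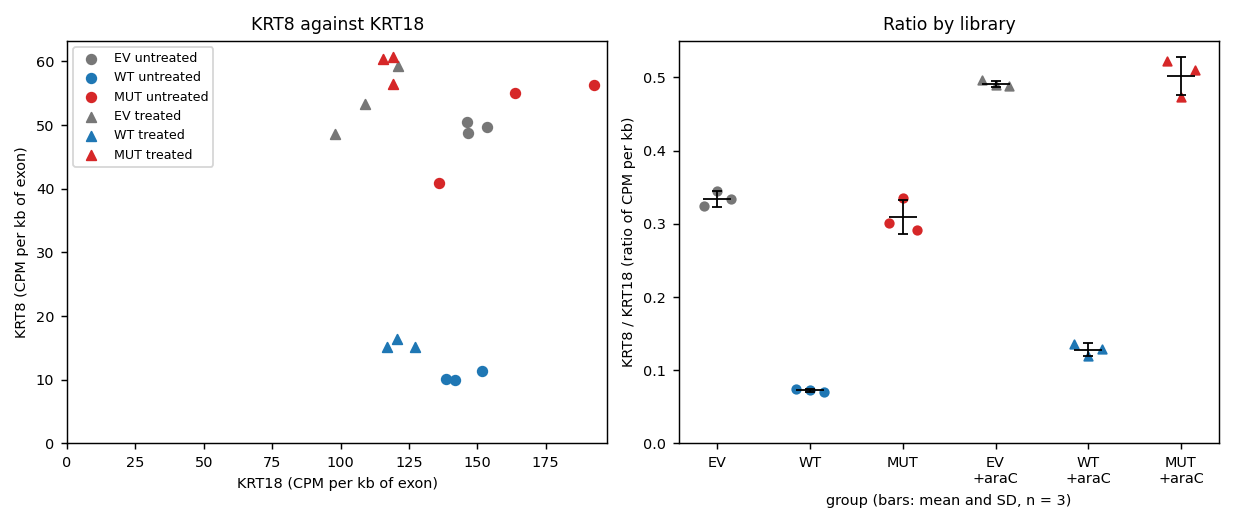
KRT8 against KRT18 in CPM per kb of exon for the 18 libraries (left), and the ratio of KRT8 to KRT18 by library and group with mean and SD of 3 libraries (right; +araC is cytarabine). The WT libraries lie along the bottom of the left panel at a KRT18 level like that of the other lines, and each line's ratio is higher with cytarabine.

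Counting bears on this pair in a few ways. KRT8 and KRT18 lie on opposite strands and share 525 exon bases, and the strand setting of the counting is not given in the sources used here. KRT8 also has many near-identical copies: 22 rows of KRT8 pseudogenes summed to 10.6% of the KRT8 level in untreated EV, 27.2% in untreated WT and 10.6% in untreated MUT, and to 10.0%, 20.2% and 8.20% after treatment. The pseudogene rows were themselves lower in WT, at 19.5 CPM against 36.3 CPM in EV and 36.9 CPM in MUT without treatment. Together with KRT8 they gave 378 CPM in EV and 386 CPM in MUT without treatment, against 91.3 CPM in WT.

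KRT7 (chromosome 12, 52232520 to 52252187, plus strand), a type II keratin of glandular and ductal epithelia, had its highest level in WT, the opposite side from KRT8. Its untreated values were 9.39, 10.3 and 9.21 CPM in EV, 15.5, 15.6 and 17.98 CPM in WT, and 7.90, 6.16 and 8.39 CPM in MUT. No library of WT overlapped the other lines. WT exceeded EV by 0.76 on the log2 scale (SE 0.135, edgeR adjusted p 7.5e-04), and MUT lay below WT by -1.12 (SE 0.137, edgeR adjusted p 1.3e-05). MUT against EV was -0.36 (edgeR adjusted p 0.0812).

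After cytarabine KRT7 had 14.97, 10.1 and 12.1 CPM in EV, 14.6, 15.1 and 14.4 CPM in WT, and 9.38, 9.78 and 11.1 CPM in MUT. WT then overlapped EV, and only the difference of MUT against WT passed among the treated lines (-0.55, SE 0.132, edgeR adjusted p 0.00612). The drug raised KRT7 by 0.37 in EV (edgeR adjusted p 0.0307) and 0.42 in MUT (edgeR adjusted p 0.0142), and the change in WT was -0.15. The call in EV was lost without treated EV replicate 1 (0.21) or 3 (0.39) and without untreated EV replicate 1 (0.35) or 3 (0.34), and that in MUT without treated MUT replicate 3 (0.35) or untreated MUT replicate 2 (0.27). Both calls were lost with the authors' library factors (0.30 and 0.34) and with only the groups compared in the fit (0.38 and 0.42). That in EV was also lost with no low-count filter (0.35). KRT7 shares its locus with KRT86, whose row held 19.6% as many counts, and with the antisense row KRT7-AS at 4.34%, so reads of these genes may have been divided.

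KRT81 (chromosome 12, 52285913 to 52291535, minus strand), a hair keratin, was the most abundant keratin per kb. Its mean over all libraries was 746 CPM per kb of exon, against 136 for KRT80, 134 for KRT18, 39.9 for KRT8, 26.2 for KRT75 and 2.95 for KRT7. KRT81 made up between 72.8% and 82.8% of the summed type II keratin level per kb in the group means. Untreated values were 1286, 1326 and 1246 CPM in EV, 1513, 1560 and 1427 CPM in WT, and 1422, 1403 and 1902 CPM in MUT. Treated values were 1566, 1374 and 1487 CPM in EV, 1426, 1477 and 1521 CPM in WT, and 1309, 1294 and 1376 CPM in MUT. The group means thus ran from 1286 to 1576 CPM.

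Of the KRT81 differences, MUT against EV passed without treatment (0.29, SE 0.0897, edgeR adjusted p 0.0264), and so did the fall with cytarabine in MUT (-0.25, SE 0.0897, edgeR adjusted p 0.0239). Without untreated MUT replicate 3 they were 0.16 (edgeR adjusted p 0.0736) and -0.12 (edgeR adjusted p 0.0965). The first also lost its call without any 1 of the untreated EV libraries (0.27 to 0.32), and the second without treated MUT replicate 1 (-0.24) or 2 (-0.23). Both were lost as well with only the groups compared in the fit (0.29 and -0.25). Without untreated MUT replicate 3, calls were gained for KRT81 with cytarabine in EV (0.20; also without treated EV replicate 2, 0.25), for untreated WT against EV (0.21) and for treated MUT against EV (-0.17) and WT (-0.15). KRT81 lies inside the gene row of KRT86 on the opposite strand, which held 0.161% as many counts. The hair keratins are similar in sequence, and how reads with several matches were counted is not given in the sources used here.

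KRT80 (chromosome 12, 52168996 to 52192001, minus strand), a type II keratin of many epithelia, was close to level across the groups, with means from 534 to 646 CPM. Only its change with cytarabine in WT passed the threshold, from 633.9, 654.1 and 650.4 to 541.2, 533.5 and 526.9 CPM (log2 fold change -0.28, SE 0.0784, edgeR adjusted p 0.00657). Its 6 line differences ran from -0.13 to 0.13 on the log2 scale, with 95% intervals inside -0.29 to 0.30. Without untreated MUT replicate 3, the library that stood apart, KRT80 was called lower with cytarabine in MUT (-0.23 in place of -0.10, edgeR adjusted p 0.00315) and higher in untreated MUT than in EV (0.20 in place of 0.07, edgeR adjusted p 0.0275).

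KRT19 (chromosome 17, 41523617 to 41528309, minus strand), the smallest type I keratin and a marker of ductal epithelia, was the 1 gene of the 10 that did not pass the low-count filter, so it was not tested. Its estimated counts were 0, 0 and 1 in untreated EV, 1, 0 and 0 in untreated WT, 0, 0 and 2 in untreated MUT, 2, 1 and 2 in treated EV, 1, 0 and 0 in treated WT, and 30, 10 and 12 in treated MUT. Treated MUT was the only group in which every library was above 3 counts. The ratio of depth-scaled counts was 20.8 against untreated MUT (exact 95% interval 5.48 to 177) and 9.35 against treated EV (3.76 to 30.0), intervals that cover counting error only and rest on 2 and 5 counts in the comparison groups. The level in treated MUT was still only 1.32, 0.479 and 0.523 CPM.

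Among the desmosomal genes, DSP (chromosome 6, 7541575 to 7586718, plus strand), which encodes desmoplakin, the link from the plaque to the filaments, was chosen on its untreated levels. These were 3.91, 3.62 and 3.94 CPM in EV, 9.02, 7.88 and 7.81 CPM in WT, and 2.11, 2.14 and 1.31 CPM in MUT. The lines did not overlap, and the order was the reverse of that of KRT75 for WT and MUT, with WT highest and MUT lowest. The log2 differences that chose it were 1.11 (WT minus EV), -1.04 (MUT minus EV) and -2.15 (MUT minus WT).

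After cytarabine DSP had 5.38, 9.05 and 7.06 CPM in EV, 17.02, 22.8 and 17.2 CPM in WT, and 3.52, 5.12 and 3.09 CPM in MUT, with no overlap between the lines. WT exceeded EV by 1.41 on the log2 scale (SE 0.193, edgeR adjusted p 4.7e-05), and MUT lay below WT by -2.28 (SE 0.202, edgeR adjusted p 2.3e-07). MUT lay below EV by -0.87 (SE 0.207, edgeR adjusted p 0.00823), and without treated MUT replicate 3 this was -0.72 (edgeR adjusted p 0.0546). As with KRT75, these tests compare the same lines on which DSP was chosen and are not independent support for the difference. Treated minus untreated was 0.90, 1.20 and 1.07 in EV, WT and MUT, given with no test. Single libraries held 23 to 422 counts of DSP, so its values are less precise than those of the abundant keratins.

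JUP (chromosome 17, 41754604 to 41786932, minus strand) encodes plakoglobin, a catenin of desmosomes and adherens junctions, and rose most with cytarabine among the 7 genes tested for it. In EV it went from 21.6, 20.3 and 24.5 to 60.6, 68.1 and 65.4 CPM, in WT from 14.9, 17.8 and 17.7 to 45.5, 35.7 and 45.0 CPM, and in MUT from 21.5, 25.6 and 23.5 to 71.6, 45.5 and 57.2 CPM. No treated library overlapped an untreated one. The log2 fold changes were 1.55 (SE 0.136, edgeR adjusted p 2.8e-08), 1.33 (SE 0.139, edgeR adjusted p 2.4e-07) and 1.31 (SE 0.135, edgeR adjusted p 1.4e-07), and the 3 differences between them did not pass the threshold.

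Treated WT had less JUP than treated EV by -0.62 (SE 0.129, edgeR adjusted p 0.00258). Without treatment WT against EV was -0.40 with no overlap, which did not pass (SE 0.144, edgeR adjusted p 0.0845). That difference was called in DESeq2 (-0.41, DESeq2 adjusted p 0.0499) and with only the groups compared in the fit (-0.39). It was also called without treated MUT replicate 1 or 2 (-0.40 each). MUT exceeded WT by 0.47 after treatment (SE 0.129, edgeR adjusted p 0.0150) and by 0.49 before it (SE 0.143, edgeR adjusted p 0.0199). The treated value lost its call without treated MUT replicate 1 (0.29, edgeR adjusted p 0.137) or treated WT replicate 2 (0.36, edgeR adjusted p 0.1003), and the untreated one without untreated WT replicate 1 (0.41, edgeR adjusted p 0.0985).

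PKP2 (chromosome 12, 32790745 to 32896841, minus strand), plakophilin 2 of the desmosomal plaque, was low in untreated MUT and rose most there. Untreated values were 46.7, 42.8 and 44.6 CPM in EV, 42.7, 41.1 and 46.0 CPM in WT, and 26.7, 27.5 and 25.9 CPM in MUT. EV and WT overlapped, and all MUT libraries lay below them. MUT differed from EV by -0.74 (SE 0.0698, edgeR adjusted p 8.5e-07) and from WT by -0.70 (SE 0.0695, edgeR adjusted p 1.2e-06).

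With cytarabine PKP2 reached 55.7, 64.7 and 59.8 CPM in EV, 67.3, 63.3 and 63.4 CPM in WT, and 53.9, 52.5 and 53.5 CPM in MUT, so that the lines came closer. The rises were 0.43 (SE 0.0669, edgeR adjusted p 3.1e-05), 0.58 (SE 0.0665, edgeR adjusted p 7.5e-07) and 1.00 (SE 0.0689, edgeR adjusted p 8.3e-10). The rise in MUT was larger than that in EV by 0.57 (SE 0.0958, edgeR adjusted p 0.0170) and larger than that in WT by 0.42 (SE 0.0955, edgeR adjusted p 0.0391), in tests of the difference itself. The call against EV was lost in 5 of 25 alternative settings, among them without untreated EV replicate 1 (0.54) or 3 (0.58) and without treated MUT replicate 2 (0.58) or 3 (0.57). The call against WT was lost in 19 of 25, with values from 0.37 to 0.45. Among treated lines only MUT against WT passed (-0.28, SE 0.0656, edgeR adjusted p 0.00512).

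**Figure D3:**
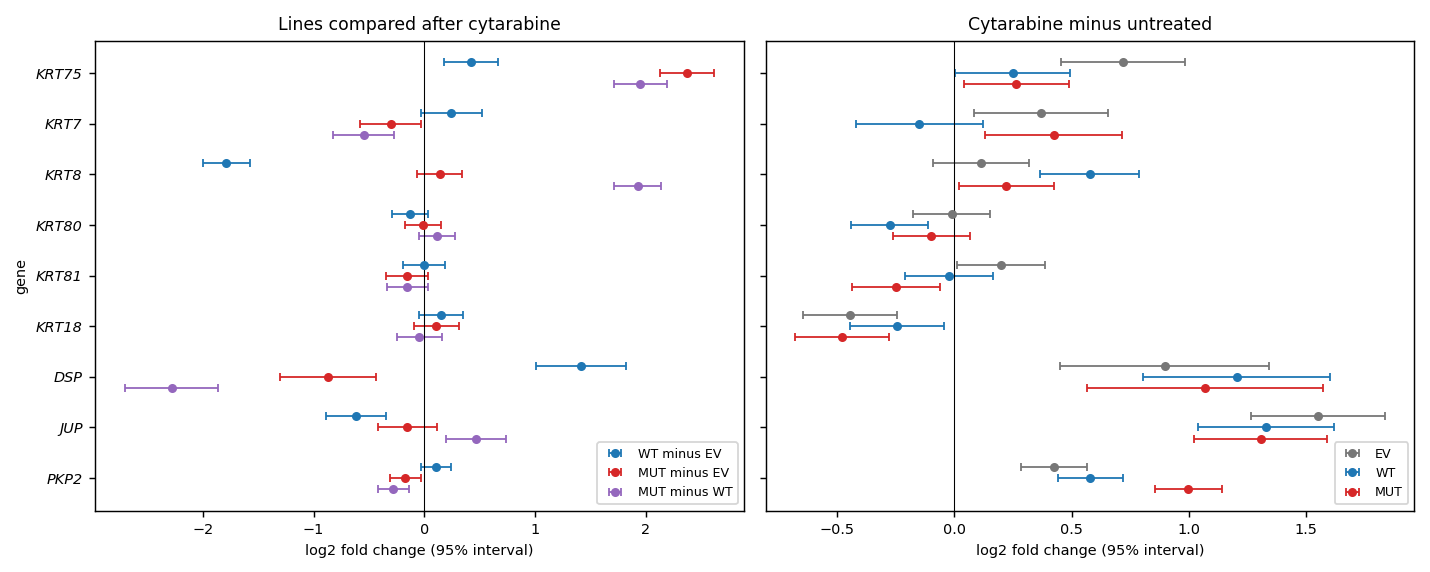
Log2 fold changes (x axis) of the 9 genes that passed the low-count filter, with 95% intervals from the edgeR fit; left, lines compared after cytarabine, and right, cytarabine against untreated within each line. The right-hand values of KRT75 and DSP are a description. On the left KRT75 reaches 2.38 for MUT against EV, KRT8 1.93 and DSP -2.28 for MUT against WT, and JUP and PKP2 lie above 0 in all 3 lines on the right.

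Counted over the 7 tested genes that were not chosen on values, cytarabine raised 3 and lowered 1 in EV, raised 3 and lowered 2 in WT, and raised 3 and lowered 2 in MUT. Over all tested genes the shares called higher and lower were 26.1% and 22.9% in EV, 26.3% and 22.7% in WT, and 30.4% and 25.9% in MUT, so these counts are near the background. The median log2 changes of the 7 were 0.20, -0.02 and 0.22, against 0.05, 0.03 and 0.05 over all genes. JUP, PKP2 and KRT18 passed in every line.

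For the untreated lines, 1 of the 7 was higher and 1 lower for WT against EV (KRT7 and KRT8; 4.3% and 7.36% of all genes). For MUT against EV it was 1 and 1 (KRT81 and PKP2; 9.88% and 10% of all genes), and for MUT against WT 2 and 2 (KRT8 and JUP higher, KRT7 and PKP2 lower; 11.7% and 9.54% of all genes). For the treated lines, KRT75 and DSP stay out of the counts because they were chosen for differences between the same lines. WT against EV then gave 0 higher and 2 lower of the 7 (KRT8 and JUP; 7.41% and 9.12% of all genes), also in DESeq2, and no higher one had an unadjusted p under 0.05. MUT against EV gave 0 and 0 in edgeR and in DESeq2 (6.85% and 7.13% of all genes), with 2 of the 7, KRT7 and PKP2, at an unadjusted p under 0.05. Calls were gained there without treated EV replicate 1 (PKP2, -0.22), treated EV replicate 2 (KRT7, -0.42) and untreated MUT replicate 3 (PKP2, -0.18, and KRT81, -0.17). MUT against WT gave 2 and 2 (KRT8 and JUP, then KRT7 and PKP2; 10.4% and 9.48% of all genes). Differences between lines in the cytarabine effect passed for 0 of 7 genes between WT and EV, 1 between MUT and EV and 1 between MUT and WT, PKP2 in both cases, against 0.285%, 0.214% and 1% of all genes. For WT against EV, where none passed in edgeR, KRT7, KRT8 and KRT80 (3 of the 7) had an unadjusted p under 0.05, and DESeq2 also called 0.

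The other keratins were read from a list of 48 genes, of which 26 were measured and 14 passed the low-count filter. Cytarabine raised 5 of the 14 in each line, KRT15, KRT23, KRT33B, KRT34 and KRT222, and lowered KRT10 in each line and KRT17 in WT and MUT. Over all genes 26.1%, 26.3% and 30.4% were called higher in EV, WT and MUT and 22.9%, 22.7% and 25.9% lower, so the count of 5 is near the background. KRT23, KRT33B and KRT222 had group means of at most 2.29 CPM. The median changes of the 14 were 0.73, 0.24 and 0.47 against 0.05, 0.03 and 0.05 over all genes. In EV the type I hair keratin KRT34 rose to 19.6 ± 0.833 CPM from 3.98 ± 0.108 CPM (SD, n = 3 here and below). In WT it rose to 51.7 ± 8.67 from 9.54 ± 2.09 CPM, and in MUT to 18.4 ± 1.36 from 6.10 ± 0.467 CPM. KRT10, a keratin of differentiating epidermis, fell by 0.41, 0.77 and 0.70 on the log2 scale, and the call in EV was lost without treated EV replicate 1 (-0.38) or 2 (-0.32) and without untreated EV replicate 1 (-0.33) or 3 (-0.40). It was also lost with a filter on a mean of at least 50 counts (-0.35).

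KRT17, a type I keratin of basal and stressed epithelia on chromosome 17, was lowest in WT, as KRT8 was. It had 128.1, 124.5 and 133.8 CPM in untreated EV, 32.1, 34.3 and 33.9 CPM in untreated WT, and 134.9, 159.7 and 198.0 CPM in untreated MUT. After treatment it had 116.5, 118.8 and 117.2 CPM, then 27.3, 23.3 and 25.05 CPM, then 133.4, 97.3 and 110.6 CPM. All WT libraries were below all others. WT against EV was -1.94 (SE 0.120, edgeR adjusted p 1.8e-09) without and -2.22 (SE 0.122, edgeR adjusted p 4.5e-10) with treatment, and MUT against WT was 2.29 and 2.17. Unlike KRT8, KRT17 was also called higher in untreated MUT than in EV, with no overlap (0.35, SE 0.113, edgeR adjusted p 0.0344), a call lost without any 1 of the untreated EV libraries (0.33 to 0.38) or without untreated MUT replicate 3 (0.21). It was also lost with only the groups compared in the fit (0.34). After treatment MUT against EV was -0.05. With cytarabine KRT17 changed by -0.13 in EV, -0.41 in WT and -0.53 in MUT, whereas KRT8 did not fall in any line.

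Of 16 other desmosomal and plakin genes, 13 were measured and 10 passed the filter. Cytarabine raised 4 and lowered 2 in EV, raised 3 and lowered 2 in WT, and raised 7 and lowered 3 in MUT, with medians of 0.28, 0.28 and 0.46 against 0.05, 0.03 and 0.05 over all genes. In EV and WT these counts are close to the shares of all genes called (26.1% higher and 22.9% lower, then 26.3% and 22.7%). In MUT all 10 passed, against 30.4% higher and 25.9% lower. The 4 most abundant of them were named by rule. PLEC, the cytoskeletal linker plectin, fell by 0.56, 0.42 and 0.46 in EV, WT and MUT (the call in WT was lost without treated WT replicate 1 or 3 or untreated WT replicate 1, at -0.39 each), and PKP4, a catenin of cell junctions related to the plakophilins, fell by 0.58, 0.62 and 0.49. The giant plakins DST and MACF1 passed the threshold in MUT, where they rose by 0.72 and 0.39, and not in EV (0.30 and -0.06) or WT (0.33 and 0.05), and the differences between lines did not pass. The call of MACF1 in MUT was lost without untreated MUT replicate 3 (0.12) or treated MUT replicate 1 (0.39) or 2 (0.38), and DST was called in EV and WT as well without untreated MUT replicate 2 or 3. With only the groups compared in the fit, the calls of MACF1 (0.39) and PLEC (-0.46) in MUT were lost. That of MACF1 was also lost with the authors' library factors (0.31). Chosen after their values were seen, the desmosomal cadherin DSG2 (0.26, 0.51 and 0.52), the desmosomal membrane protein PERP (0.32, 0.29 and 0.39) and the filament linker PPL (3.02, 2.46 and 3.71, from under 1 CPM) rose in every line. The call of DSG2 in EV was lost without treated EV replicate 3 (0.21) or untreated EV replicate 1 (0.21) or 2 (0.24). That of PERP was lost in EV without treated EV replicate 2 (0.24) or untreated EV replicate 2 (0.32) or 3 (0.31), in WT without replicate 1 (0.24) or 2 (0.26) of the treated or replicate 2 (0.25) or 3 (0.30) of the untreated libraries, and in MUT without untreated MUT replicate 2 (0.23). With the authors' library factors the calls of DSG2 in EV (0.19) and of PERP in EV (0.25) and WT (0.23) were lost. Of the 12 adherens junction and catenin genes cytarabine raised 4 in each line and lowered 4, 4 and 5, with medians of -0.13, -0.07 and 0.03. Over all genes 26.1%, 26.3% and 30.4% were called higher and 22.9%, 22.7% and 25.9% lower, and the share of higher calls is near that.

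Markers of epithelial cells moved with the drug as well. Of 21 listed, 19 were measured and 12 tested, and 8, 8 and 10 of them rose in EV, WT and MUT while none fell, with medians of 0.91, 0.89 and 1.13. Over all genes 26.1%, 26.3% and 30.4% were called higher, and the medians were 0.05, 0.03 and 0.05. The tight junction gene CLDN4 rose in EV from 11.7 to 19.9 CPM, in WT from 10.7 to 14.8 and in MUT from 15.6 to 20.2, calls that were lost in WT without treated WT replicate 3 (0.35) and in MUT without treated or untreated MUT replicate 1 (0.28 each). The call in MUT was also lost with the authors' library factors (0.29). CDS1 and the transcription factor GRHL1 rose in every line, by 1.23, 0.95 and 1.07 and by 0.85, 1.24 and 1.24. OCLN, the remaining gene of the 4 most abundant tested here, was called only for MUT (0.41, edgeR adjusted p 0.00846). Its log2 changes of -0.05 for EV and 0.26 for WT did not pass the threshold. The WT change was called with only the groups compared in the fit (0.26) or without treated EV replicate 1 (0.25). The levels stayed low beside those of a keratin such as KRT8. CLDN3, ESRP1 and ELF3 were at or under 3 counts in every untreated library. Vimentin (VIM), the mesenchymal filament protein, fell with the drug, from means of 2059, 2093 and 2281 CPM to 1100, 1151 and 1161 CPM in EV, WT and MUT (log2 changes -0.90, -0.86 and -0.97; edgeR adjusted p 6.8e-08, 1.2e-07 and 1.7e-08). Other abundant genes of that list did not follow it. COL1A1 rose in EV (0.45, edgeR adjusted p 0.00108) and MUT (0.71, edgeR adjusted p 6.4e-06), and its change in WT (0.10) did not pass. FN1 did not pass in any line (-0.24, -0.23 and 0.16 in EV, WT and MUT). SPARC had means of 888, 1151 and 1056 CPM before and 893, 1039 and 1087 CPM after treatment. Of the 13 mesenchymal genes 3, 1 and 3 rose and 4, 3 and 5 fell, with medians of -0.14, -0.23 and 0.04. Over all genes 22.9%, 22.7% and 25.9% were called lower in EV, WT and MUT, so these counts of falls are near the background. The part of these markers in the changes of JUP, PKP2 and KRT8 was not tested.

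The genes around KRT75 were compared with it. Besides KRT75, 16 rows reach within 250 kb, of which 10 passed the filter, and most of these are keratins of the type II cluster. In the treated cells no neighbour was higher and 1 was lower in MUT than in EV (KRT1, at 10 counts per library on average), and the median over neighbours was 0.09 where KRT75 stood at 2.38. Over all genes 6.85% were called higher and 7.13% lower in this contrast, so the counts of neighbours are near the background. KRT80, KRT7, KRT86 and KRT81 had -0.01, -0.30, -0.23 and -0.15. None of these 4 passed. Neighbours with few counts had higher values, KRT6A 2.91, KRT5 1.59 and AC055736.1 1.53, which did not pass either. Without treatment AC055736.1, the row that overlaps KRT75, was called higher in MUT than in EV (3.70, edgeR adjusted p 0.0149), and so was KRT81 (9.88% of all genes were). KRT7 (0.76) and KRT86 (1.19) were called higher in untreated WT than in EV (4.3% of all genes were), the direction of KRT75. KRT7 was called lower in untreated MUT than in WT (-1.12; 9.54% of all genes were), the opposite direction. For treated MUT against WT, KRT5 and AC055736.1 were called higher and KRT7 lower (10.4% and 9.48% of all genes). KRT5 and AC055736.1 averaged 14.8 and 8.65 counts per library.

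Near DSP there were 8 further rows, 7 of them tested. After treatment SSR1 was the only one called for WT against EV (0.20), where DSP stood at 1.41, and BMP6 the only one called for MUT against EV (0.52), where DSP stood at -0.87. Over all genes 7.41% were called higher and 9.12% lower for WT against EV. For MUT against EV 6.85% were called higher and 7.13% lower. SNRNP48, the nearest protein-coding gene, had 0.09 and 0.19, neither past the threshold. The antisense row AL031058.1, beside the start of DSP, was called lower in MUT than in WT (-1.91), as DSP was, at a mean of 4.78 counts per library. BMP6 was called higher in that contrast (0.65), in which 10.4% of all genes were called higher and 9.48% lower. Without treatment BMP6 was called higher in WT than in EV (0.47) and SNRNP48 lower in MUT than in WT (-0.38), the directions of DSP. In the opposite direction, SSR1 (0.19), AL139095.2 (1.08) and BMP6 (0.97) were called higher in untreated MUT than in EV. So were AL139095.2 (1.00) and BMP6 (0.49) in untreated MUT against WT. The shares of all genes called in these contrasts are given above.

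**Figure D4:**
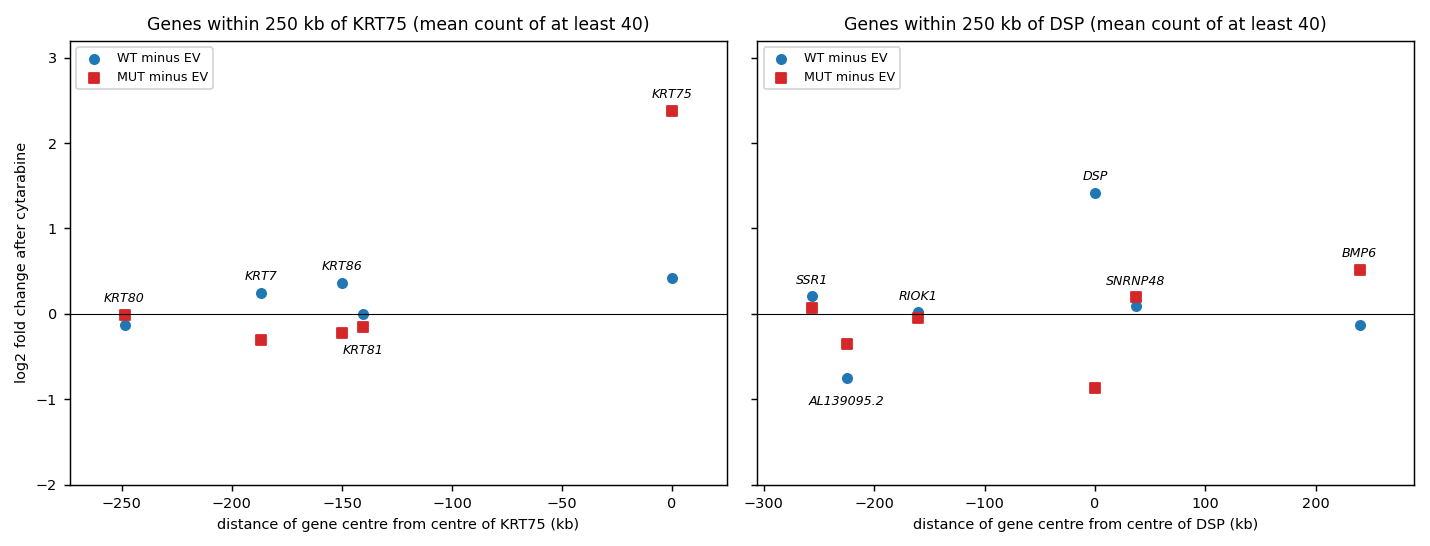
Log2 fold changes after cytarabine (y axis) of WT against EV (circles) and MUT against EV (squares) for tested genes reaching within 250 kb of KRT75 (left) or DSP (right) with a mean of at least 40 counts, by distance of gene centres in kb. KRT75 stands at 2.38 for MUT against EV while the neighbours plotted lie between -0.30 and -0.01, and DSP stands at 1.41 for WT against EV with the neighbours plotted at 0.20 or below.

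The genes most like KRT75 over the 18 libraries, by Pearson's r of log2 CPM among 13682 genes, were RRM2 (0.967), KLF11 (0.931), WTIP (0.926), DNMT3A (0.925) and LIG1 (0.921). RRM2, the small subunit of ribonucleotide reductase, had 418, 472 and 760 CPM in untreated EV, WT and MUT and 466, 576 and 884 CPM after treatment. Those most like DSP were PLEKHG4 (0.956), TRIM32 (0.956), TRIM35 (0.953), SNX30 (0.952) and KIAA1191 (0.943). PLEKHG4 had 25.8, 35.1 and 20.2 CPM without and 34.5, 46.9 and 26.1 CPM with treatment. These are descriptions over libraries that share the same 3 lines and 2 conditions, and many genes differ along them.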

How the data were processed

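RNA of 18 U2OS libraries (6 groups of 3) was sequenced from NEBNext Ultra libraries. Per the submitters' processing notes the tools included CASAVA and STAR 2.6.1d and the build was hg38; the counting tool and its use of strand are not given in the sources used here. The deposited count table gives the authors' estimated counts of 25296 genes (71.4% of values whole), used here after rounding. A second deposited table of 19591 genes holds a normalized signal equal to 1 plus a library factor times the count (largest relative deviation 7.33e-06), and served only for the authors' factors.

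Genes were filtered with filterByExpr (18226 left), scaled by TMM and fitted in 1 edgeR 4.0.16 quasi-likelihood model of 6 groups (R 4.3.3), with Benjamini-Hochberg adjustment over all tested genes and a threshold of 0.05. SE is the absolute log2 fold change over the square root of F. The script was tested on simulated data. CPM was taken over TMM-scaled sizes, with a prior count of 2 on the log2 scale. Library totals were 15.4 to 21.9 M, and the common coefficient of variation was 0.104. Replicates differed beyond sampling noise (chi-square per degree of freedom 2.45 to 46.8), and all were kept.

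Members and gene lists were chosen with earlier results of these data known. Genes named were the members, the 4 most abundant tested genes of a list, keratins on chromosomes 12 and 17, rows reaching within 250 kb of KRT75 or DSP, and the 5 genes with the highest r to each. A row spanning most of chromosome 12 was left out of overlaps. Exon lengths came from GENCODE 44, promoter windows from RefSeq (4 members matched). Alternatives covered scaling, filter, tool (DESeq2 1.42.0), libraries in the fit, a replicate block and single libraries left out.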

Additional observations from a re-analysis of the deposited data

Results flagged for a closer look

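The effect of cytarabine on PKP2 differed between lines by a test of the difference itself. The log2 fold change was larger in MUT than in EV by 0.57 (SE 0.0958, edgeR adjusted p 0.0170) and larger in MUT than in WT by 0.42 (SE 0.0955, edgeR adjusted p 0.0391). The untreated MUT libraries had 25.9 to 27.5 CPM and the treated ones 52.5 to 53.9 CPM. The call against EV was lost in 5 of 25 alternative settings and that against WT in 19 of 25, where the values ran from 0.54 to 0.58 and from 0.37 to 0.45.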

How the results depend on the processing

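Of 90 tests of members, 36 passed the threshold, 25 of these in every one of 25 alternatives, and 11 were lost in at least 1. Another 18 were gained in at least 1 and none reversed. The 90 include the 6 treated line differences of KRT75 and DSP, which all passed. Both genes were chosen for differences between the same lines, so the total of 36 is not a result about the family. Shares of all genes called are given above for each contrast. Of the 6 treated line differences of KRT75 and DSP, 4 held in all 25 alternatives, KRT75 in WT against EV was lost in 3 and DSP in MUT against EV in 1. Over single libraries left out, KRT75 in WT against EV ran from 0.31 to 0.50 and DSP in MUT against EV from -1.11 to -0.68. When only the groups compared entered the fit, the number of members called was 3 in place of 5 for cytarabine in MUT, 5 in place of 2 for untreated WT against EV, 1 in place of 2 for untreated MUT against EV, 2 in place of 0 for the WT and EV effects, and 0 in place of 1 for the MUT and EV effects. DESeq2 gave 2 for the MUT and EV effects. For the MUT and WT effects the 1 call became 0 with RLE factors, the authors' factors, no low-count filter, the replicate block and only the groups compared. With single libraries left out, the members called ran from 1 to 3 for untreated MUT against EV, 1 to 4 for treated MUT against EV (KRT75 and DSP included), and 0 to 2 for the difference of effects of MUT against EV and of MUT against WT. The cause of these changes was not tested. Same-numbered replicates showed no general shared deviation (median r -0.02 over 45 pairs, range -0.18 to 0.35), and 6 of 18 libraries correlated best with their own number. This check cannot tell whether same-numbered replicates were grown or processed together. The replicate block lost 1 call (PKP2, 0.42) and gained none. Of 192 tests of the list genes named, 72 passed the threshold and 28 of these were lost in at least 1 alternative; 30 were gained and none reversed. Low counts limit DSP, KRT7 and KRT19.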
